A study of Mus musculus with 9 samples.

Results

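The genes described here encode the vacuolar proton pump (V-ATPase), the sodium pump, the calcium pumps, the sodium-calcium exchangers and the cation-chloride cotransporters. They were chosen by gene symbol alone, and 55 of the 24378 gene rows of the table matched. The V-ATPase accounts for 26 of these rows, the sodium pump for 8, the calcium pumps for 9, the exchangers for 3 and the chloride cotransporters for 9. Their molecules were counted in 9 single cells of the hypothalamic paraventricular nucleus, taken from C57Bl6/N mice 21 to 28 days old. All cells carry 1 label, secretagogin-positive, with no treatment and no comparison group, and are called cell 1 to cell 9 after their labels. No animal is named, so the cells were treated as 1 sample and no p-value is given. Every interval is an exact one at 95% and holds counting error alone.

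The V-ATPase uses ATP to drive protons into vesicles, endosomes and lysosomes. Its cytosolic V1 domain splits ATP and its membrane V0 domain carries the protons. In hypothalamic neuroendocrine neurons the acid interior of dense-core granules is needed for prohormone processing and peptide storage, and that of synaptic vesicles drives transmitter loading. The sodium pump sets the sodium and potassium gradients on which excitability and many transporters depend. Calcium pumps and exchangers clear calcium from the cytosol, and the chloride cotransporters set the direction of the current through GABA receptors.

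The cells differed in depth and in the markers they carried. Depth was lowest in cell 1, with 1021 gene molecules, and in cell 6, with 3393, and it was highest in cell 5, with 26466, around a median of 9573. Scgn, the gene of the label, had 0 to 11 molecules and was detected in 5 cells. Markers of another cell type were present in 4 cells. Cell 5 held 382 molecules of oligodendrocyte markers, with all 8 of 8 at 2 molecules or more, beside 236 of neuron markers. Ependymal and tanycyte markers summed to 303 molecules in cell 8, beside 29 of astrocyte markers, cell 7 held 52 of endothelial markers, and cell 4 held 2376 of blood and 117 of endothelial markers. In the other 5 cells none of these lists exceeded 3 molecules, and microglial markers were at 0 throughout. The column name of cell 9 gives a lane that none of the other cells here has. Cell 9 also had 614 spike-in molecules, against 1962 to 2184 in the others.

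The sequences that matter most for reading the V-ATPase counts are those of its proton-carrying ring. Atp6v0c, which encodes the c subunit of that ring, spans chr17:24163866-24169702 (minus strand; GENCODE M21, build GRCm38/mm10). It had no molecule in any cell. Taking 3 molecules as the limit that a count of 0 allows, here and for other counts of 0, this row's level was at most 0.328 per 10000 over all 91370 gene molecules. The row Atp6v0c-ps2 had 75. GENCODE annotates that locus, chr6:37806086-37806550 (plus strand), as a processed pseudogene, an intronless copy of the gene's mRNA. Its 465 bases match the coding sequence of Atp6v0c at 464 positions, or 99.8%, with no gap. The difference is T111C, counted from the first base of the start codon, with the base of Atp6v0c first. The first 150 bases of both are shown because they hold that difference, which is in capitals:
Atp6v0c: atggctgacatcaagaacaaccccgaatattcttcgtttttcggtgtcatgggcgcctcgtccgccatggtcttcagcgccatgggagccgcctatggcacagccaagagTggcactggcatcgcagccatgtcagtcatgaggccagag
Atp6v0c-ps2: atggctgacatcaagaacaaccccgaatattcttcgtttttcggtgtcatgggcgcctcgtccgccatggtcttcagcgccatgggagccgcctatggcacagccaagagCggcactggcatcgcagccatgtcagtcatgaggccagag
Only the coding sequence was compared, and the rest of the longest Atp6v0c transcript, of 2567 bases, was not. Reads from the shared sequence cannot be assigned to either locus unless they cover position 111. The 75 molecules are therefore given under the row's own name, as uncertain between the gene and its copy, and the main V-ATPase sums are given with and without them.

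Atp6v0c-ps2 had 0, 1, 10, 3, 45, 3, 3, 2 and 8 molecules in cells 1 to 9. It was detected in every cell except cell 1, the shallowest. Per 10000 gene molecules the level was 17.0 in cell 5 (interval 12.4 to 22.8), 10.2 in cell 9 (interval 4.41 to 20.1) and 9.32 in cell 3 (interval 4.47 to 17.1). These 3 intervals overlapped. Those of cells 2, 4, 7 and 8 lay below that of cell 5, with upper ends of 5.82, 7.29, 12.2 and 5.48.

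Of the 55 genes, 24 were detected in at least 5 cells with at least 1 molecule, or 43.6%, while 6.76% of all gene rows were. A further 13 were detected in 1 to 4 cells and 18 in none, so that 37 of the 55 had a molecule in any cell, against 40.1% of all rows. At 2 molecules or more, 12.7% of the 55 and 2.55% of all rows reached 5 cells, and at 3 or more 9.09% and 1.39%. The 55 rows together held 733 molecules, 0.802% of the total, with a median of 7 molecules per row against 0 over all rows. By cell the 55 genes took from 0.141% of molecules in cell 4 to 1.22% in cell 5, and from 4 genes in cell 1 to 32 in cell 5 were detected.

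**Figure D1:**
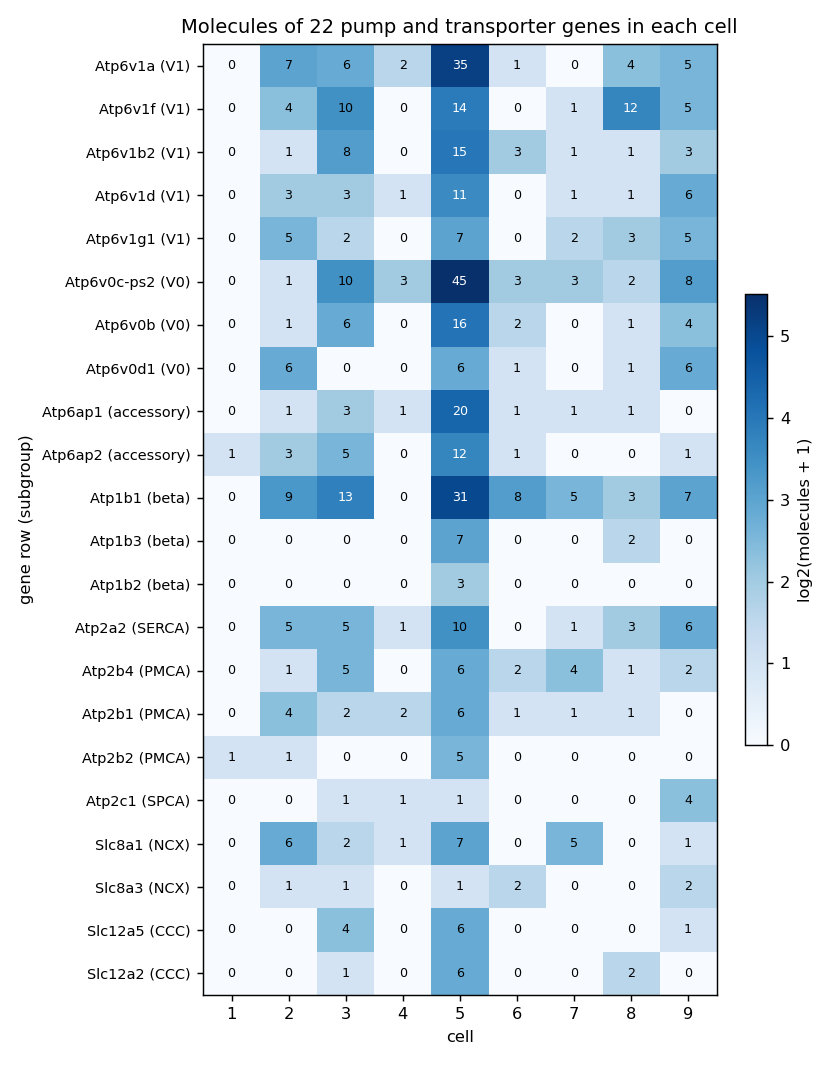
Molecules of 22 genes of the 55 (rows, with their subgroup in brackets: V1, V0 and accessory subunits of the V-ATPase; beta subunits of the sodium pump; SERCA, PMCA and SPCA calcium pumps; NCX exchangers; CCC chloride cotransporters) in each of the 9 cells (columns). Numbers are molecules and the colour is log2(molecules + 1); cell 5 has the highest numbers in most rows and cell 1 holds at most 1 molecule of any gene.

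The V-ATPase was the largest of the groups. Its 26 rows held 456 molecules, or 381 without Atp6v0c-ps2, and the sodium pump held 133, the calcium pumps 86, the exchangers 33 and the chloride cotransporters 25. The limit of 5 cells was reached by 15 of the 26 V-ATPase genes and 4 of the 8 sodium pump genes. It was also reached by 3 of the 9 calcium pump genes and 2 of the 3 exchangers, but by none of the 9 chloride cotransporters. Of all gene rows, 6.76% reached it. Among the 5 cells without markers of another cell type, 14, 3, 3, 2 and 0 genes of these groups were found in at least 3, as were 5.78% of all gene rows. A larger group has more rows to add up, but the median molecules per gene followed the same direction, at 17.5 for the V-ATPase, 7.5 for the sodium pump, 7 each for calcium pumps and exchangers, and 0 for the chloride cotransporters. Summed over genes after division by the length of each gene's longest transcript, the groups had 369, 45.0, 12.3, 3.37 and 3.96 molecules per kilobase in the same order, and the V-ATPase had 208 without Atp6v0c-ps2. The order of the smallest groups, exchangers and chloride cotransporters, thus turned round with division by transcript length. Whether such division suits molecule counts was not tested.

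Within cells, the summed V-ATPase level was above that of each other group in all 9 cells. Without Atp6v0c-ps2 it equalled the sodium pump in cell 6, at 11 molecules each, and was above every group in the other 8 cells, at 29.4, 46.0, 55.0, 6.65, 64.2, 32.4, 12.6, 26.6 and 53.7 molecules per 10000 in cells 1 to 9. With that row, the V-ATPase level was 29.4, 47.0, 64.3, 9.15, 81.2, 41.3, 16.8, 28.1 and 63.9 molecules per 10000 in cells 1 to 9. Cells 5, 3 and 9 were highest, and cells 4 and 7 were lowest. The interval of cell 4, from 4.57 to 16.4, did not overlap those of cells 2, 3, 5, 6, 8 and 9. Cells 4 and 7 carried endothelial markers, cell 4 also held globin transcripts, and the part of these cells' other RNA in the low levels was not tested. The interval of cell 1, from 6.06 to 85.9, overlapped all the others, since it rests on 3 molecules.

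The sodium pump level was 0, 12.5, 16.8, 0.832, 21.2, 32.4, 11.2, 10.6 and 16.6 molecules per 10000 in cells 1 to 9. The shallow cell 6 was highest, with an interval of 16.2 to 58.0 that overlapped those of all cells except cell 4. The calcium pump level was 9.79, 12.5, 12.1, 3.33, 11.3, 8.84, 8.38, 3.79 and 15.3 in the same cells. Cells 4 and 8 were lowest, and the intervals of all cells overlapped.

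**Figure D2:**
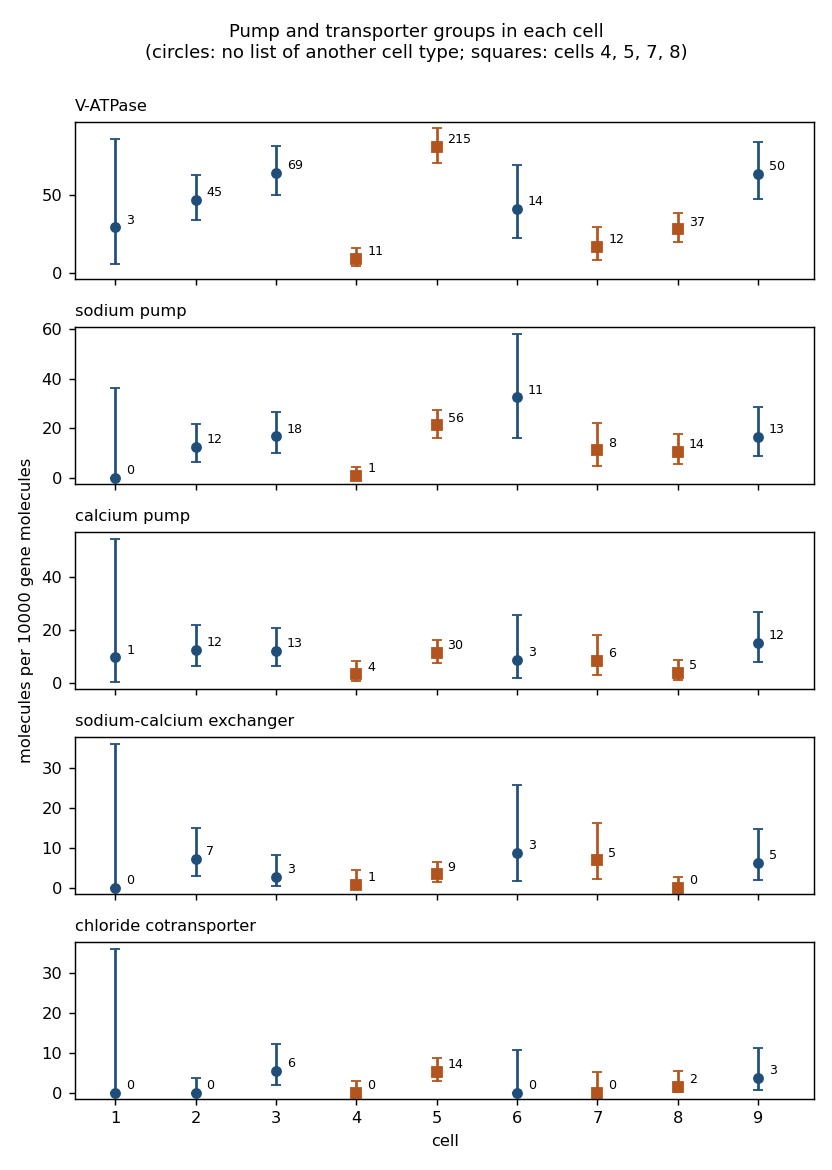
Summed level of each group in each cell, in molecules per 10000 gene molecules, with exact 95% Poisson intervals; the number beside each point is the molecules counted, and the panels have their own vertical scales. Squares are cells 4, 5, 7 and 8, which carried markers of another cell type. The V-ATPase runs from 9.15 in cell 4 to 81.2 in cell 5, and the wide interval of cell 1 rests on 3 molecules.

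In the V1 domain, 9 of 13 genes (69.2%) reached 5 cells, against 6.76% of all gene rows. The other 4 had no molecule. The undetected ones were Atp6v1b1, Atp6v1c2, Atp6v1e2 and Atp6v1g3, paralogs better known from kidney or testis. For the B, C and E subunits all molecules thus lay in 1 paralog each, with 32 for Atp6v1b2, 17 for Atp6v1c1 and 19 for Atp6v1e1. The G subunit of the stalk was split, with 24 molecules of the broadly expressed Atp6v1g1 and 11 of Atp6v1g2, the form enriched in brain. The share of Atp6v1g1 was 68.6% (interval 50.7 to 83.1). In cell 5 the numbers were 7 and 5, and in cell 9 they were 5 and 0, with intervals of the share that overlapped.

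Atp6v1a encodes the catalytic A subunit of the V1 head and spans chr16:44085402-44139705 (minus strand). It had 0, 7, 6, 2, 35, 1, 0, 4 and 5 molecules in cells 1 to 9. Cell 5 held 35 of the 60 molecules, or 58.3% (interval 44.9 to 70.9), while it held 29.0% of all gene molecules. Atp6v1b2, the B subunit that pairs with A in the head, had 0, 1, 8, 0, 15, 3, 1, 1 and 3 molecules. Both genes were detected in 7 cells, and their shares in cell 5 overlapped, at 46.9% for Atp6v1b2.

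Atp6v1f, the F subunit of the central rotor, had 0, 4, 10, 0, 14, 0, 1, 12 and 5 molecules. Its level was 9.32 per 10000 in cell 3 (interval 4.47 to 17.1), 9.11 in cell 8 (interval 4.71 to 15.9) and 5.29 in cell 5 (interval 2.89 to 8.88), and these intervals overlapped. Its share in cell 5, 30.4% (interval 17.7 to 45.8), was close to that of all molecules. Atp6v1d, the rotor shaft, had 0, 3, 3, 1, 11, 0, 1, 1 and 6 molecules, and Atp6v1g1 had 0, 5, 2, 0, 7, 0, 2, 3 and 5. Atp6v1e1 and Atp6v1h had 19 molecules each in 6 and 5 cells. Per kilobase of transcript, Atp6v1f stood highest among V1 genes at 57.1 molecules, followed by Atp6v1g1 at 21.1 and Atp6v1a at 14.2. The transcript of Atp6v1f is the shortest of these, so its place depends on whether molecules are divided by length.

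In the V0 domain, 4 of 10 rows (40%) reached 5 cells, against 6.76% of all gene rows. Of the others, 3 were found in fewer and 3 had no molecule. Atp6v0b, which encodes the ring subunit related to c, had 0, 1, 6, 0, 16, 2, 0, 1 and 4 molecules in cells 1 to 9. Atp6v0d1, the subunit that couples the ring to the rotor, had 0, 6, 0, 0, 6, 1, 0, 1 and 6, so cells 2, 5 and 9 held 6 each and cell 3 none. Atp6v0d2, its paralog of osteoclasts and kidney, had none. Few molecules were counted for the large a subunit, which anchors the pump and forms the proton path. Its genes Atp6v0a1, Atp6v0a2 and Atp6v0a4 had 1, 2 and 0 molecules over all cells, in cells 7, 1 and 3. Such counts do not show that the subunit was absent, and why they were low was not tested. Tcirg1, the fourth gene for this subunit, lies outside the symbol rule and had 2 molecules, both in cell 5.

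The small e subunit was split between its genes by cell. Atp6v0e2, known from brain, had 0, 4, 1, 0, 7, 0, 1, 2 and 3 molecules, and the broadly expressed Atp6v0e had molecules only in cell 4, with 2, and cell 8, with 3. The 18 molecules of Atp6v0e2 were 78.3% of both (interval 56.3 to 92.5). Cell 5 held 7 of 7 as Atp6v0e2 (interval 59.0 to 100%), and cell 8 held 2 of 5 (interval 5.27 to 85.3%). The intervals overlapped. Cells 4 and 8 carried endothelial, blood, ependymal or astrocyte markers, whose part in this split was not tested.

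Of the accessory subunits, Atp6ap1 was concentrated in cell 5. Atp6ap1, which assists assembly and targeting of the pump, had 0, 1, 3, 1, 20, 1, 1, 1 and 0 molecules in cells 1 to 9. Atp6ap2, also known as the prorenin receptor, had 1, 3, 5, 0, 12, 1, 0, 0 and 1. Cell 5 held 71.4% of the Atp6ap1 molecules (interval 51.3 to 86.8) and 52.2% of those of Atp6ap2. Cell 9, close to cell 3 in its summed V-ATPase level, held 1 accessory molecule against 8 in cell 3. The accessory levels were 1.28 per 10000 in cell 9 (interval 0.0323 to 7.12) and 7.46 in cell 3 (interval 3.22 to 14.7). These intervals overlapped. Atp6ap1l had none.

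V1 genes together held 254 molecules and V0 genes 151, a V1 share of 62.7% (interval 57.8 to 67.4). The share was 70.7%, 70.5%, 59.6%, 75.0% and 57.1% in cells 2, 3, 5, 8 and 9, the 5 cells with over 30 such molecules, and their intervals overlapped. Without Atp6v0c-ps2 the share over all cells was 77.0% (interval 72.0 to 81.4). The row for the copy of the c subunit thus held 75 of the 151 V0 molecules.

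V-ATPase promoters can hold the CLEAR element, an E-box motif known as a target of the lysosomal regulator TFEB. RefSeq windows from 250 bases before to 50 after a transcript start (GRCm38.p6) were at hand for 38 of the 55 genes. The core CACGTG, which reads alike on both strands, was in a window of 4 of 18 V-ATPase genes (22.2%), in 5 of the 20 other pump and transporter genes, and in 8.09% of all genes. The longer TCACGTGA, which contains CACGTG and is also its own reverse complement, was in 3 of 18 (16.7%), in 1 of the 20 others, Atp2b1, and in 1.12% of all genes. By window, 7.15% of all 32851 held the shorter and 0.974% the longer motif. The windows of Atp6v1a, the V1 gene with most molecules, and of both V0 genes with the motif and at least 20 molecules are printed in the direction of transcription, with the motif in capitals. Those are chr16:44139210-44139509, chr8:105566015-105566314 and chr4:117887280-117887579, all on the minus strand:
Atp6v1a: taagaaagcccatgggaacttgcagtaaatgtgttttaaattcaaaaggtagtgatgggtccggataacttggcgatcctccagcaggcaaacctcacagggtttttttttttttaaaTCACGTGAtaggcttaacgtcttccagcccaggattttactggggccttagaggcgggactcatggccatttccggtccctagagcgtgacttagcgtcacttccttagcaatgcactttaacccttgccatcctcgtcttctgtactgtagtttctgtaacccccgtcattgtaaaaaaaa
Atp6v0d1: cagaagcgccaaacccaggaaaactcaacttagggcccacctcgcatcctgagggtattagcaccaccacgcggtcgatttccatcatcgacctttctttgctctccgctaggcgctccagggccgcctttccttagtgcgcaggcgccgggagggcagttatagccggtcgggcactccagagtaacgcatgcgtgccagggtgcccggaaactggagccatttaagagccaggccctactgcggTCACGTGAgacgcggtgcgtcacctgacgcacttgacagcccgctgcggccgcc
Atp6v0b: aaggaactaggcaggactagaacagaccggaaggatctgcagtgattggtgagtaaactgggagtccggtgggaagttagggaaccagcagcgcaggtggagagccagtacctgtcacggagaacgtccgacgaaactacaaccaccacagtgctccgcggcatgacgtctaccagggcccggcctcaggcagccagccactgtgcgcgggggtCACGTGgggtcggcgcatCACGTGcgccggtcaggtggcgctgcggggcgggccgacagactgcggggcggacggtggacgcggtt
The motif began 132 bases before the RefSeq start in Atp6v1a and 4 bases before it in Atp6v0d1. Atp6v0b held 2 copies, the first 36 bases before the start. Atp6v0e had TCACGTGA as well, with only 5 molecules in these cells. The windows of Atp6v1a and Atp6v0e lie inside the GENCODE spans of these genes, so the RefSeq starts used are downstream of the GENCODE gene starts. A match describes the letters of the window and not a bound site.

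The V-ATPase was then set beside granule content, a list of 16 genes of granins, peptide-processing enzymes and granule membrane proteins. The list held 711 molecules, of which 264 came from Resp18, a protein of neuroendocrine granules, 105 from the granin Scg2 and 76 from Scg5, a convertase chaperone. Its level was 9.79, 75.2, 109, 5.82, 91.4, 64.8, 20.9, 63.0 and 194 molecules per 10000 in cells 1 to 9. Cells 9, 3 and 5 were highest and cells 4, 1 and 7 lowest. Cells 3, 5 and 9 were thus also those with the highest V-ATPase levels, and cells 4 and 7 were low in both.

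Over the 9 cells the V-ATPase and granule levels had a Spearman correlation of 0.883 and a Pearson correlation of 0.767. This is a description without a test. The cells share 1 chip protocol and each level is divided by the cell's own total. Without cells 4 and 5, the farthest from the median V-ATPase level, the Pearson correlation was 0.852. Other groups gave similar values, and granule levels had a Spearman correlation of 0.833 with the calcium pumps, 0.733 with the sodium pump and 0.867 with neuron markers other than Meg3. The V-ATPase in turn had 0.833 with those neuron markers and 0.383 with a list of 14 lysosome genes. With Meg3 included, the neuron marker level was highest in cell 1, at 607 per 10000, and its correlations were not computed. The correlation of V-ATPase with granule levels also depended on 1 granule gene, at 0.700 without Resp18, and it was 0.477 with the processing enzymes alone. After every cell was thinned to 1021 molecules it was 0.546, with 0 to 8 V-ATPase molecules left per cell. When cells 4, 5, 7 and 8 were left out, it was 0.900 over 5 cells. Without Atp6v0c-ps2 it stayed at 0.883.

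**Figure D3:**
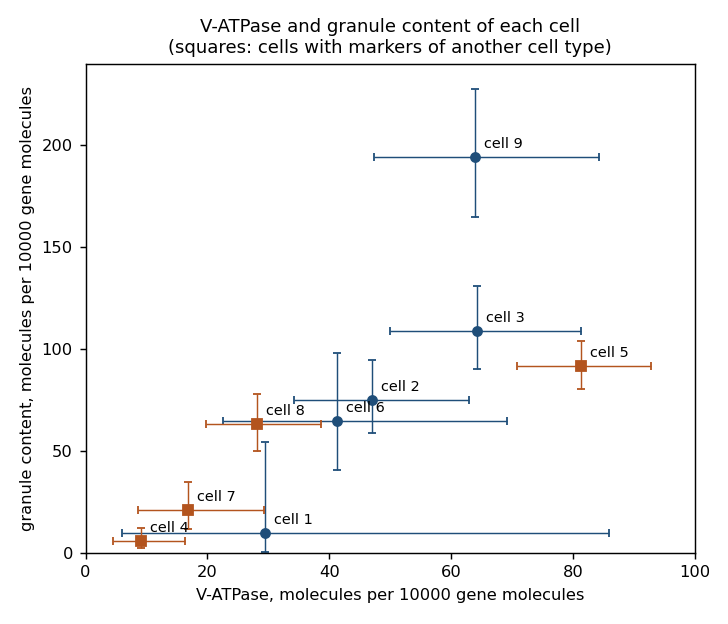
Summed granule level (vertical axis) against summed V-ATPase level (horizontal axis) of the 9 cells, both in molecules per 10000 gene molecules, with exact 95% Poisson intervals. Squares are cells 4, 5, 7 and 8, with markers of another cell type; cell 9 has 194 on the granule axis at 63.9 on the V-ATPase axis, and cell 5 has 91.4 at 81.2.

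The balance of proton pump and granule transcripts differed between the cells that were rich in both. V-ATPase molecules made up 47.0% of the sum of both lists in cell 5 (interval 42.4 to 51.7), 37.1% in cell 3 (interval 30.1 to 44.5) and 24.8% in cell 9 (interval 19.0 to 31.3). The intervals of cells 5 and 9 did not overlap. Without Atp6v0c-ps2 the shares were 41.3% in cell 5 (interval 36.5 to 46.2), 33.5% in cell 3 and 21.6% in cell 9 (interval 16.1 to 28.1). In numbers, cell 5 had 215 V-ATPase and 242 granule molecules, and cell 9 had 50 and 152. Scg2 alone gave 37 of the molecules of cell 9 and 21 of those of cell 5. Cell 5 carried oligodendrocyte markers and cell 9 had a lane label that none of the other cells here has, and neither can be told apart from the difference.

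Cell 5 held 47.1% of V-ATPase molecules (interval 42.5 to 51.8), or 44.6% without Atp6v0c-ps2 (interval 39.6 to 49.8), against 29.0% of all gene molecules. Its share of the sodium pump was 42.1% (interval 33.6 to 51.0), and of the calcium pumps 34.9% (interval 24.9 to 45.9). Neuron markers other than Meg3 were at 51.3%, and ATP synthase with the other P-type pumps at 44.2%. Granule content was at 34.0% (interval 30.6 to 37.7), lysosome genes at 35.5% (interval 28.6 to 42.8) and cytosolic ribosomal protein genes at 37.2% (interval 35.7 to 38.8). The V-ATPase share in cell 5 was thus below that of neuron markers other than Meg3 (interval 46.2 to 56.4), with overlap. With Meg3 included, neuron markers were at 29.8% (interval 26.6 to 33.1), below the V-ATPase share without overlap. The V-ATPase share was also above those of granule content and ribosomal protein genes, without overlap.

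Among sodium pump genes, Atp1b1 led. It encodes the main beta subunit of neurons and spans chr1:164437109-164458355 (minus strand). It had 0, 9, 13, 0, 31, 8, 5, 3 and 7 molecules in cells 1 to 9, 76 in all. Wherever detected it had at least 3 molecules. Its level was 23.6 per 10000 in cell 6 (interval 10.2 to 46.5) and 2.28 in cell 8 (interval 0.470 to 6.65), and these intervals did not overlap. Cell 4, with 12024 gene molecules, held none, which allows up to 2.50 per 10000 by the limit of 3 molecules. The upper end of its exact interval is 3.07. Atp1b3 had 7 molecules in cell 5 and 2 in cell 8, Atp1b2, a beta subunit of glia, had 3 in cell 5, and Atp1b4 had none. Per kilobase, Atp1b1 had 29.5 molecules, against 4.51 for Atp1b3.

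Of 9 genes for sodium pump partners, Fxyd6, a regulatory subunit, was detected in 7 cells with 40 molecules, 17 of them in cell 5, and no other was in at least 5 cells. Fxyd6 alone makes up 11.1% of this list, against 6.76% of all gene rows in at least 5 cells.

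Calcium pumps are placed in the endoplasmic reticulum (SERCA), the plasma membrane (PMCA) and the Golgi (SPCA). Atp2a2, the broadly expressed SERCA gene (chr5:122453513-122502225, minus strand), had 0, 5, 5, 1, 10, 0, 1, 3 and 6 molecules. The muscle form Atp2a1 and Atp2a3 had none, so all 31 SERCA molecules were Atp2a2. Cell 9 was highest at 7.67 per 10000 (interval 2.81 to 16.7), and its interval overlapped those of all other cells.

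Plasma membrane pumps had 48 molecules. Atp2b4 had 0, 1, 5, 0, 6, 2, 4, 1 and 2 molecules, and Atp2b1 had 0, 4, 2, 2, 6, 1, 1, 1 and 0. Each was detected in 7 cells. Atp2b2, a form of neurons, was found 5 times in cell 5 and once in cell 1 and in cell 2, and Atp2b3 gave 2 molecules in cell 5 and 1 in cell 2. The PMCA share of PMCA and SERCA molecules was 60.8% (interval 49.1 to 71.6). It was 65.5% in cell 5, and in cell 9 it was 2 of 8 molecules (interval 3.19 to 65.1%), which overlapped. The Golgi pump Atp2c1 gave 4 molecules in cell 9 and a single one in cell 3, cell 4 and cell 5, and Atp2c2 had none.

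The exchangers remove calcium in return for sodium. Slc8a1 had 0, 6, 2, 1, 7, 0, 5, 0 and 1 molecules, and Slc8a3 had 0, 1, 1, 0, 1, 2, 0, 0 and 2. For Slc8a2, a brain form, cell 9 held 2 molecules and cells 5 and 6 held 1 each. Slc8a3 reached 5 cells only through 1 or 2 molecules in each. No exchanger molecule was found in cells 1 and 8. Of the 13 listed partners in the table, which include release channels and potassium-dependent exchangers, none was detected in at least 5 cells, while 7 were in 1 to 4. Over all gene rows the share in at least 5 cells was 6.76%, so a short list can hold none.

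Chloride cotransporters were sparse. Slc12a5 encodes KCC2, the neuronal chloride extruder, and spans chr2:164960802-164999731 (plus strand). Cell 3 held 4 of its molecules, cell 5 held 6 and cell 9 held 1. Slc12a2 encodes NKCC1, which imports chloride and is found in glia, ependyma and many other cells. Of its molecules, 1 was in cell 3, 6 were in cell 5 and 2 in cell 8. Slc12a5 in cell 9 thus rests on 1 molecule. Of the cells with Slc12a2, cells 5 and 8 carried glial or ependymal markers, whose part in it was not tested.

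**Figure D4:**
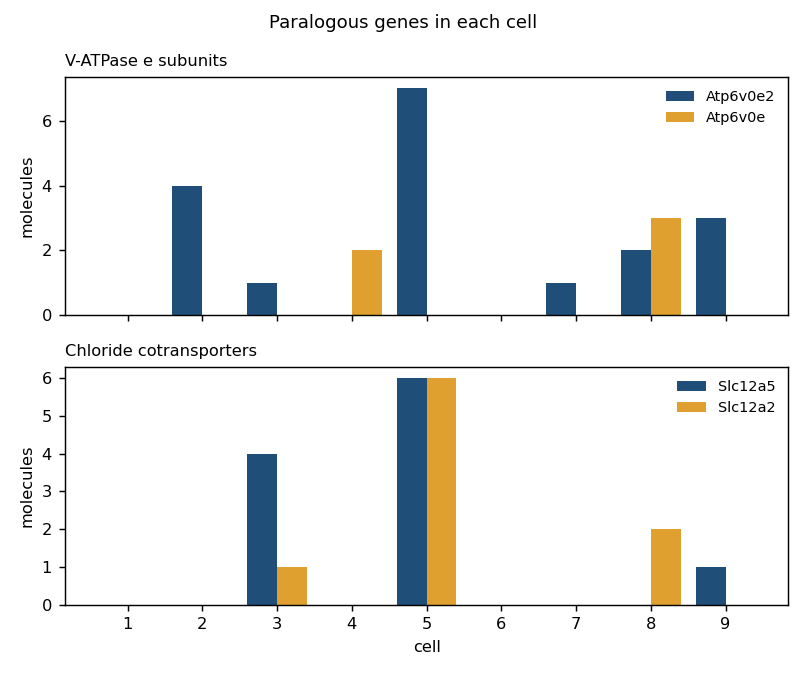
Molecules of paralogous genes in each of the 9 cells: V-ATPase e subunits (top) and chloride cotransporters (bottom). Bars start at 0; cell 5 holds 7 molecules of Atp6v0e2 and none of Atp6v0e, and 6 each of Slc12a5 and Slc12a2.

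Slc12a5 made up 55.0% of the molecules of both genes (11 of 20, interval 31.5 to 76.9), and 83.3% without cells 4, 5, 7 and 8, where 6 molecules were left. Slc12a7 had 2 molecules in cell 9 and 1 in cell 3, and Slc12a1, Slc12a3, Slc12a4, Slc12a8 and Slc12a9 had none. At 3.73 per 10000 (interval 1.02 to 9.54), Slc12a5 was highest in cell 3, with 2.27 and 1.28 in cells 5 and 9. Cells 1, 2, 4, 6, 7 and 8 held none, which allows up to 29.4, 3.13, 2.50, 8.84, 4.19 and 2.28 in that order. The levels of cells 5 and 9 lie within all of these limits and are not excluded. That of cell 3 is above these limits in cells 2, 4 and 8, though its interval reaches below them. The exact intervals of these cells have higher upper ends, at 3.85, 3.07 and 2.80 in that order. By these upper ends, the level of cell 3 is above those of cells 4 and 8 but not that of cell 2. Of the 10 listed chloride partners, Slc4a10, a bicarbonate transporter, reached 5 cells with 9 molecules, and the kinase Wnk1 had 12 in 4 cells. Slc4a10 alone makes up 10% of this list, against 6.76% of all gene rows in at least 5 cells.

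Of 12 genes for assembly and regulation of the V-ATPase, 3 were found in at least 5 cells and 9 in fewer. Ncoa7 had 14 molecules in 6 cells, Dmxl2 had 13 in 5, and Rogdi, with 18, was found in 3 cells, with 8 molecules in cell 9. Of 14 lysosome genes, 6 were in at least 5 cells, led by the cathepsin gene Ctsl with 35 molecules, Psap with 29 and Ctsb with 28. Of 24 genes of the mitochondrial ATP synthase and other P-type pumps, 14 were, led by Atp5g3 with 91 molecules, Atp5e with 89 and Atp5j2 with 72. In this order the lists had 25.0%, 42.9% and 58.3% of their genes in at least 5 cells, against 6.76% of all gene rows. The V-ATPase level exceeded the lysosome level in 8 cells, and lysosome genes were higher in cell 8, at 33.4 against 28.1 per 10000, with intervals that overlapped.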

How the data were processed

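The labels' protocols give dissociation of slices 300 µm thick, single-cell capture by Fluidigm C1 in as many as 96 chambers, and 21 PCR cycles. The table deposited by the authors holds raw molecule counts in whole numbers, for 24378 gene rows and 92 spike-in rows. The submitters' processing notes name mm10 and Bowtie. How reads became molecules, and whether strand was used, are not given in the sources used here, and 21 of the 55 genes overlap an annotated gene on the other strand. The columns name 9 different wells on 2 lanes, with 0 wells shared and 0 columns unassigned.

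A level is a count divided by the cell's gene molecules, times 10000. Counts got exact Poisson intervals and shares exact Clopper-Pearson intervals, both at 95%. For a listed gene split over numbered loci, the larger value in each cell was used, which touched none of the 55. Lengths and positions are from GENCODE M21 (GRCm38/mm10). Doublets were not called in 9 cells. Cells were set aside as mixed where at least 3 markers of another type had 2 or more molecules.

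The genes and lists were chosen with earlier results of these data known. Values in every cell are given for genes with at least 20 molecules, the 2 with most in each subgroup, and isoforms that mark cell types. Genes shown outside that rule, such as Atp6v0e2 and Atp6v0e, were picked after their values were seen. Values of a few of the 55 genes are not reported here, though group sums include them. Of 1 listed gene, Mrln, the table had no row. The interval and thinning steps were run on simulated Poisson counts, as a check of the code alone. Such counts cannot show whether the intervals hold for the spread between real cells. Alternatives were other detection limits, thinning to 1021 molecules, other totals, transcript length, and leaving out cells or Atp6v0c-ps2. Those without Atp6v0c-ps2, those with totals free of mitochondrial and globin genes, and the detection counts with cells left out were chosen after seeing the data. Computation used Python 3.11.15, numpy 2.4.6, pandas 2.3.3, scipy 1.17.1, biopython 1.88 and matplotlib 3.10.9.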

Additional observations from a re-analysis of the deposited data

Results flagged for a closer look

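Of 36 levels of groups and genes examined over the 9 cells, 7 had 1 cell set apart from the others by more than Dixon's test allows at 95% (gap over range, n = 9). Chance flags about 1 in 20 sets of normally distributed values. That rate does not hold for these sparse counts, where a gene found in 1 cell is always set apart. The Golgi pump gene Atp2c1, and with it the SPCA pair, stood at 5.11 per 10000 in cell 9, against at most 0.932 elsewhere. Atp6ap1 stood at 7.56 in cell 5, against at most 2.95 elsewhere. Atp1b2 was detected in cell 5 alone, at 1.13. Slc8a3 stood at 5.89 in cell 6, on 2 molecules. Atp2b2 and Atp6ap2 both stood at 9.79 in cell 1, where 1 molecule gives that level.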

How the results depend on the processing

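No paired analysis was possible because the cells form 1 group. Of the 15 V-ATPase genes in at least 5 cells, 4 remained so at 2 molecules and 3 at 3 molecules. Over all gene rows the share in at least 5 cells was 6.76% at 1 molecule, 2.55% at 2 and 1.39% at 3. The sodium pump count of 4 was 1 at 2 or 3 molecules and 2 when 6 cells were required. The calcium pump count of 3 was 1 at 3 molecules. The exchanger count of 2 was 0 at 2 or 3 molecules and 1 when 6 cells were required. Thinned to 1021 molecules, these 4 counts were 0, with fewer molecules left by construction. The correlation of V-ATPase with granule level was 0.967 for raw molecules or per spike-in molecule, 0.546 after thinning, 0.700 with granins only or without Resp18 and 0.477 with processing enzymes only. The V1 share was 77.0% without Atp6v0c-ps2. Without cells 4, 5, 7 and 8, the Slc12a5 share was 83.3%. The causes were not tested.

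Leaving out 1 cell at a time gave counts of 12 to 15 for the V-ATPase, 2 to 4 for the sodium pump, 3 to 3 for calcium pumps, 1 to 2 for exchangers and 0 to 0 for chloride cotransporters. Median levels per 10000 were 35.3 to 44.1, 11.9 to 14.6, 9.32 to 10.6, 3.10 to 4.89 and 0 to 0.759 in that order. The correlation was 0.833 to 0.905, the V1 share 61.3 to 65.3% and the Slc12a5 share 46.7 to 62.5%. The sodium pump count was 2 without cell 3, cell 8 or cell 9, and the exchanger count was 1 without cell 2, 3, 5, 6 or 9. Beside the 21 values above, 54 other values from alternatives stayed within 1.5 times a count, or within the spread between cells or counting interval of a level or share, or, for the correlation, its range with 1 cell left out. For the 22 genes shown by cell, the number of cells with the gene moved by more than 1.5 times in 9 at 2 molecules, 14 at 3 molecules and 21 after thinning. Cells 1 and 6 hold too few molecules to show most genes.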
